A study of Mus musculus with 56 samples.

Results

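The genes described here are 10 regulators of mitochondrial biogenesis and genes of mitochondrial uncoupling, taken from the 23813 genes of a liver RNA-seq table by their symbols. They are the coactivators Ppargc1a and Ppargc1b, the transcription factors Nrf1, Gabpa and Esrra, the mitochondrial factors Tfam, Tfb1m and Tfb2m, the mitochondrial carrier Ucp2 and the mitochondrial glycerol-3-phosphate dehydrogenase Gpd2. All 10 were found, were above 0 in each of the 12 libraries and passed the filter on low values (at least 0.1 RPKM, reads per kilobase of transcript scaled to the aligned reads of the library, in at least 4 of the libraries compared). Where a gene had several transcripts in the table (6 for Nrf1, 2 for Ppargc1a and 2 for Gpd2) the first listed represented it.

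The libraries came from livers of 12 male mice, with 4 mice in each of 3 groups. The study kept its mutant strains on different mixed backgrounds, each of which included C57BL/6. The paper does not state which background the WT mice used for RNA had, so strain may differ between WT and L-NCOR1ΔID mice. Over all its mice, the study lists a higher mean age for hypothyroid WT than for hypothyroid L-NCOR1ΔID mice. All 12 were fed a diet low in iodine that contained propylthiouracil (PTU), a drug against thyroid hormone synthesis. T3-treated WT mice (PTU_T3) were also injected with triiodothyronine (T3) over the last days of the diet. Hypothyroid WT mice (treatment PTU) and hypothyroid L-NCOR1ΔID mice (genotype L-NCORdeltaID, treatment PTU) were given no T3, and the study's protocol names vehicle as the control injection. The L-NCOR1ΔID mouse expresses, in the liver, an NCOR1 corepressor without the domains that bind the thyroid hormone receptor (TR). There was no untreated, euthyroid group and no T3-treated L-NCOR1ΔID group in the RNA table, so that the T3 comparison set hormone excess against hormone lack, and an effect of T3 in the mutant could not be measured. The regions acetylated at H3K27 or H3K9 in livers of hypothyroid and T3-treated WT mice were deposited as 1 merged list without levels per sample.

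PPARGC1A and PPARGC1B (PGC-1α and PGC-1β) are coactivators without DNA binding of their own. They work through factors such as NRF1, the ETS factor GABPA and the estrogen-related receptor ESRRA, which activate nuclear genes for respiratory chain subunits and for the machinery that copies and transcribes mitochondrial DNA. TFAM packages mitochondrial DNA and, with TFB2M, starts its transcription, while TFB1M methylates the small ribosomal RNA of the mitochondrion. GPD2 sits on the inner mitochondrial membrane and passes electrons from cytosolic glycerol-3-phosphate to the respiratory chain. It forms a shuttle with the cytosolic enzyme GPD1, and liver glycerol-3-phosphate dehydrogenase activity is a classical readout of thyroid status. UCP2 is an inner membrane carrier related to the thermogenic uncoupling protein UCP1, and in liver it is known to be expressed in macrophages (Kupffer cells) as well as in hepatocytes.

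The start sites of the 10 genes were compared with the merged acetylated regions on the mm9 build, with gene positions from GENCODE M1. The start site of 9 of the 10 genes lay inside an acetylated region, beside 86.1% of the 12215 tested genes with 1 GENCODE entry, so that the share of members did not stand apart from that of expressed genes in general. These regions were 2785 bp (Tfb1m) to 10092 bp (Esrra) long, with a median of 5898 bp beside 3993 bp for all genes with a region. Gpd2, on the plus strand of chromosome 2 (chr2:57090046-57223130), started inside a region of 4667 bp (chr2:57088589-57093255), and 4 regions covered 15816 bp of its 133085 bp. Ucp2, on the plus strand of chromosome 7 (chr7:107641846-107650529), started inside a region of 5898 bp (chr7:107640423-107646320), which covered 4475 bp of its 8684 bp. The exception was Ppargc1a on the minus strand of chromosome 5 (chr5:51845488-51958964), whose outermost start site lay 13081 bp from the nearest region. Its body crossed 6 regions, and at least 1 of its 4 annotated start sites lay in a region, so that all 10 genes had such a start site, beside 90.0% of the genes compared.

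Promoter sequences of RefSeq (250 bases before to 50 bases after each listed start, GRCm38.p6) were available for 9 of the 10 genes, as 11 promoters, but not for Ppargc1b. These motifs were searched on both strands. The GABPA motif CCGGAAG was found in 2 of the 11 promoters, those of Tfam and Gabpa, beside 8.86% of all 32851 promoters. The motifs of NRF1 (GCGC, 2 bases, GCGC; 6.23% of all promoters), of ESRRA (TNAAGGTCA; 1.28%) and of TR (AGGTCA, 4 bases, AGGTCA, a DR4 element; 0.0152%) were found in 0 of the 11, which says only that these letters were not in these windows. The bases upstream of the start are shown for the 2 genes with the GABPA motif, which is in capitals, and for Gpd2 and Ucp2, the genes that changed most with T3. Each matched the mm9 genome exactly at 1 place and lay wholly inside an acetylated region. The Gpd2 sequence is that before the more upstream of its 2 listed starts (chr2:57089839-57090088, plus strand), and the others lie at chr7:107641617-107641866 (Ucp2, plus strand), chr10:70700793-70701042 (Tfam, minus strand) and chr16:84835119-84835368 (Gabpa, plus strand). In the Tfam promoter the motif ended 41 bases before the start and read along the gene, and in the Gabpa promoter it ended 87 bases before the start and read on the other strand.
Tfam: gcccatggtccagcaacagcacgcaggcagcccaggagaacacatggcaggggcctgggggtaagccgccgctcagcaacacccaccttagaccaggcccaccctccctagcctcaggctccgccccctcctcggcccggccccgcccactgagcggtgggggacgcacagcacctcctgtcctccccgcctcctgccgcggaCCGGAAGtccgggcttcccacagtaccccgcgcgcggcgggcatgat
Gabpa: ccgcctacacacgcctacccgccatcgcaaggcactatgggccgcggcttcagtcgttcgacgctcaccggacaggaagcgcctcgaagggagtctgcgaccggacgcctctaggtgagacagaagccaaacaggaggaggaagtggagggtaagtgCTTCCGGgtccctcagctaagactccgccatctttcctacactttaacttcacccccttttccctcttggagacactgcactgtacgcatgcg
Gpd2: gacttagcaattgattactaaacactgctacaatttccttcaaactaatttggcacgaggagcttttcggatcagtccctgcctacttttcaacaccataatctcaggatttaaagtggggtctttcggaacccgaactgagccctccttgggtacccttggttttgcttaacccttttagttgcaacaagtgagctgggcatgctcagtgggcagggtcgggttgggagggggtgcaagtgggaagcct
Ucp2: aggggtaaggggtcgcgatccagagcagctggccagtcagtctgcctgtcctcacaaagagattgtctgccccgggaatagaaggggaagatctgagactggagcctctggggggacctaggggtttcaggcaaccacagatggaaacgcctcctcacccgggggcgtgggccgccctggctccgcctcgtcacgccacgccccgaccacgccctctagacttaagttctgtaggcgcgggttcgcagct

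The mice were first checked with genes of known response. Dio1, Thrsp, Me1 and Klf9, which T3 is known to induce in liver, all rose with T3 (4 of 4, log2 fold changes of 6.203, 2.29, 2.52 and 1.17). In hypothyroid L-NCOR1ΔID against hypothyroid WT mice, 0 of the 4 passed an adjusted p under 0.01 with limma. Their log2 fold changes there were -1.15, 1.39, 0.60 and 0.20 in the same order, with an adjusted p of 0.0542 for Thrsp. Dio1 was uneven in the mutant, at 0.567, 0.591, 20.9 and 12.1 RPKM. Hypothyroid WT replicate 3 had 57.7 RPKM of Dio1 while the other hypothyroid WT libraries had 0.719 to 8.98 RPKM, so that the results for Gpd2 and Ppargc1b, which this library also headed in its group, are given without it too. It headed its group in Tfb1m as well, for which the range over fits with each library left out in turn is given. Ncor1 was at 15.6, 14.3, 14.6 and 14.1 RPKM in hypothyroid WT, 14.3, 17.6, 18.5 and 14.3 RPKM in T3-treated WT and 13.4, 12.1, 12.4 and 13.9 RPKM in L-NCOR1ΔID libraries. The allele lacks part of the transcript, and a value over the whole transcript does not check the genotype. Depth was estimated from RPKM values under 0.05, each taken as a single read of a transcript of its GENCODE length. The most common estimate was about 29020000 to 37880000 reads in hypothyroid WT, 21280000 to 26080000 reads in T3-treated WT and 38000000 to 42760000 reads in L-NCOR1ΔID libraries. Over all 13941 genes tested with T3, log2 fold changes had a median of 0.23, and rescaling each library by the median ratio of its genes to their mean over libraries (a rescaled value) moved this to 0.01 and the share of higher genes among the called from 76.0% to 46.9%. Rescaled values are therefore given beside the RPKM values.

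With T3, Gpd2, Ucp2 and Nrf1 rose on the RPKM scale and on the rescaled one, whereas the smaller rises of Tfb1m and Tfam passed the test on the RPKM scale alone. At an adjusted p under 0.01 (limma on log2(RPKM + 0.1), Benjamini-Hochberg over all genes tested), 5 of the 10 genes were higher and 0 were lower, beside 24.5% higher and 7.71% lower of all genes tested. At an unadjusted p under 0.05, 7 were higher and 1 was lower, beside 42.9% and 13.6% of all genes tested. After rescaling, 3 were higher and 1 was lower, beside 1716 higher and 1941 lower of all 13913 genes tested. The 10 genes had a median of 0.39 on the log2 scale, beside 0.23 for all genes.

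**Figure D1:**
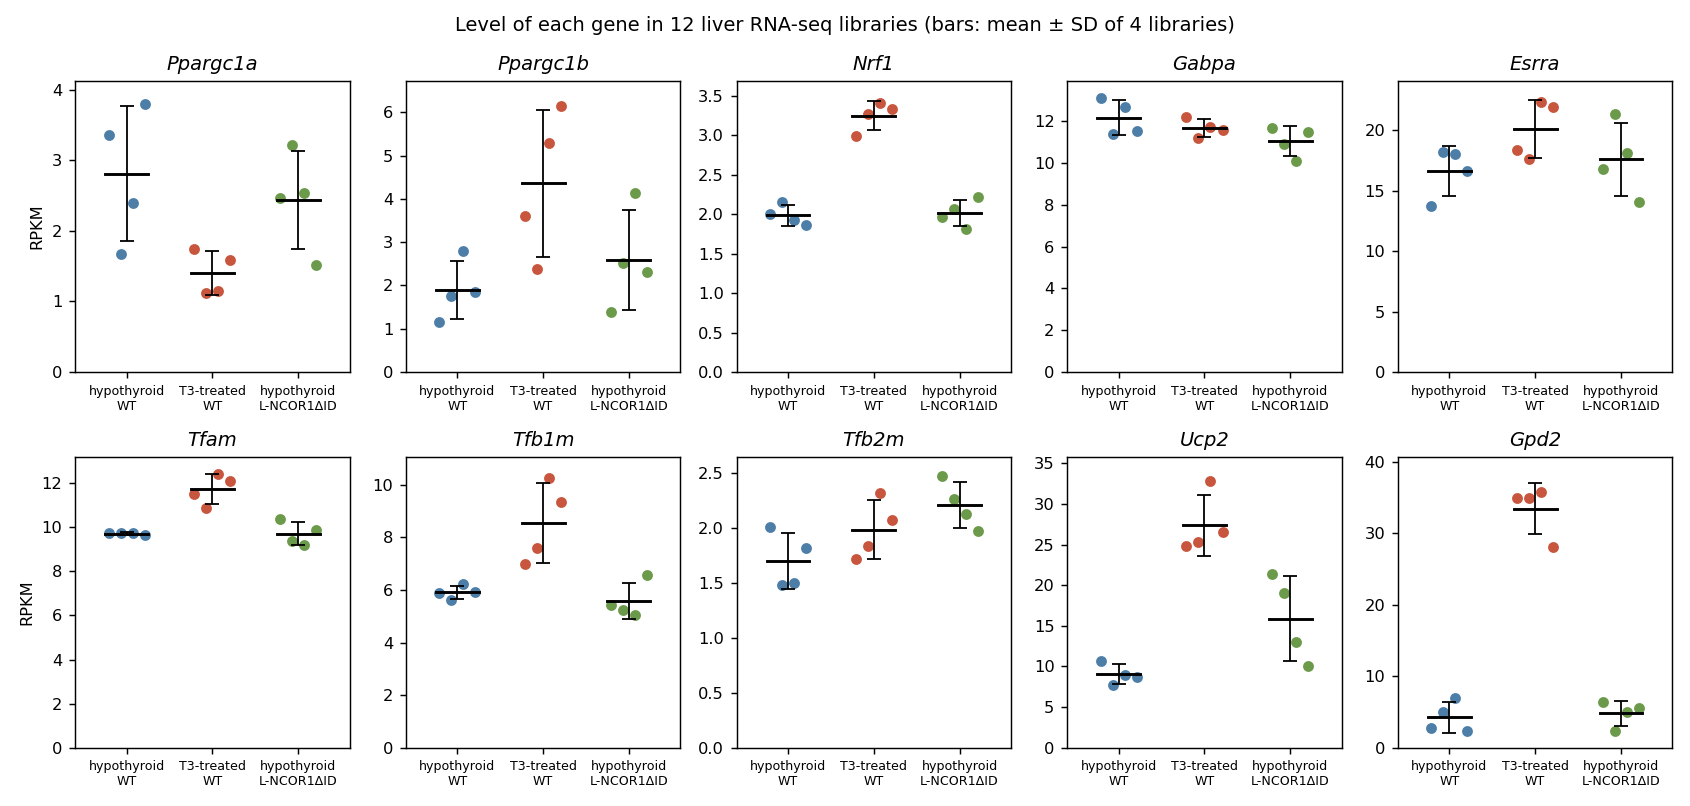
Level of each of the 10 genes in RPKM (y axis, from 0) in 4 hypothyroid WT, 4 T3-treated WT and 4 hypothyroid L-NCOR1ΔID libraries, with each point a library in replicate order and bars for the mean ± SD. Gpd2 sits at 28.1 to 35.8 RPKM in the T3-treated libraries and at 2.32 to 6.95 RPKM in all 8 hypothyroid ones, while Ucp2 in L-NCOR1ΔID runs from 10.1 RPKM, inside the hypothyroid WT range, to 21.3 RPKM, below the lowest T3-treated library.

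Gpd2 had the largest change of the 10 genes. It was at 2.77, 4.97, 6.95 and 2.32 RPKM in hypothyroid WT mice. In T3-treated WT mice it was at 34.9, 34.9, 35.8 and 28.1 RPKM. Every T3-treated library thus lay far above every hypothyroid one. The log2 fold change was 3.07 ± 0.30 (SE, adjusted p = 7.66e-05), an 8.41-fold difference of geometric means with a 95% interval from 5.24 to 13.5, and only 0.689% of all genes tested had a higher one. It was 2.84 after rescaling (adjusted p = 1.35e-04) and 3.35 without hypothyroid WT replicate 3. The other listed transcript of Gpd2 differed alike, with group means of 4.41 and 34.8 RPKM.

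Ucp2 was at 10.7, 7.75, 8.97 and 8.74 RPKM in hypothyroid WT mice and at 24.8, 25.3, 32.9 and 26.5 RPKM in T3-treated WT mice. The groups did not overlap, and the log2 fold change was 1.59 ± 0.12 (adjusted p = 2.30e-05), a 3.00-fold difference with a 95% interval from 2.49 to 3.63. It was 1.35 after rescaling (adjusted p = 3.30e-05). Macrophage markers moved with it. All 11 macrophage markers tested (12 were listed, and Cd68 was not found by symbol) were higher with T3, with a median log2 fold change of 1.62, and all 11 were also higher after rescaling. Their summed level was 87.3 to 123.3 RPKM in hypothyroid WT and 254.7 to 382.1 RPKM in T3-treated WT libraries, and none was at 0 in any library. Clec4f, a lectin of Kupffer cells, and Timd4, a receptor of resident macrophages, had log2 fold changes of 1.94 and 2.23. The part of macrophages in the rise of Ucp2 was not tested, and in whole liver more cells of a type and more RNA per cell cannot be told apart.

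Nrf1 was at 2.00, 2.16, 1.92 and 1.86 RPKM in hypothyroid WT mice and at 2.99, 3.27, 3.40 and 3.33 RPKM in T3-treated WT mice. The groups were narrow and did not overlap. The change on the log2 scale was 0.68 ± 0.09 (adjusted p = 4.61e-04), or 1.61-fold with a 95% interval from 1.39 to 1.86, and 0.45 after rescaling (adjusted p = 0.00342). The 6 listed transcripts of Nrf1 had ratios of group means from 1.43 to 1.64, in the same direction throughout. The other DNA-binding factors among the 10 genes, Gabpa and Esrra, did not pass the test. Gabpa was at 13.1, 11.4, 12.7 and 11.5 RPKM without and 12.2, 11.2, 11.7 and 11.6 RPKM with T3, with a 95% interval of the fold from 0.859 to 1.07. Its log2 fold change was -0.06, and -0.30 after rescaling (adjusted p = 0.0114). Esrra was at 13.7, 18.2, 18.0 and 16.7 RPKM without and 18.4, 17.6, 22.4 and 21.9 RPKM with T3, so that the groups overlapped, and its log2 fold change was 0.27 (adjusted p = 0.0807) and 0.03 after rescaling.

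The PGC-1 coactivators had fold changes of opposite sign, and neither passed the threshold on the RPKM scale. Ppargc1a, the coactivator that in liver is known for induction by fasting, was at 3.36, 1.67, 2.40 and 3.79 RPKM in hypothyroid WT mice and at 1.74, 1.13, 1.15 and 1.59 RPKM in T3-treated WT mice. The highest T3-treated library exceeded the lowest hypothyroid one. The log2 fold change was -0.91 ± 0.26 (adjusted p = 0.0160), with a 95% interval of the fold from 0.356 to 0.793, and -1.14 after rescaling, where it passed the test (adjusted p = 0.00844). With 1 library left out at a time it passed in 1 of 8 fits, and the adjusted p reached 0.0455. The fit that passed was without hypothyroid WT replicate 2, the lowest of its group (-1.13, adjusted p = 0.00407). Ppargc1b was at 1.16, 1.75, 2.79 and 1.86 RPKM in hypothyroid WT mice and at 3.59, 2.39, 5.29 and 6.15 RPKM in T3-treated WT mice. Its groups overlapped through T3-treated replicate 2. The log2 fold change was 1.14 ± 0.32 (adjusted p = 0.0166), with a 95% interval of the fold from 1.33 to 3.65, and without that library it was 1.39 (adjusted p = 0.00504). This was the only fit to pass of the 8 with 1 library left out, and the adjusted p reached 0.0464. Without hypothyroid WT replicate 3 the log2 fold change was 1.34 (adjusted p = 0.0101), and after rescaling 0.91 (adjusted p = 0.0387).

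Among the factors that act on mitochondrial DNA or on RNA made from it, Tfam was at 9.76, 9.73, 9.74 and 9.63 RPKM in hypothyroid WT mice and at 11.5, 10.9, 12.4 and 12.1 RPKM in T3-treated WT mice. Tfb1m was at 5.86, 5.62, 6.24 and 5.92 RPKM and, with T3, at 6.999, 7.60, 10.3 and 9.36 RPKM. Both sets of groups were apart. The log2 fold change of Tfam was 0.27 ± 0.07 (adjusted p = 0.00879), close to the median of all genes, and 0.03 after rescaling (adjusted p = 0.688). That of Tfb1m was 0.51 ± 0.12 (adjusted p = 0.00761), and 0.28 after rescaling (adjusted p = 0.0483). Both calls were close to the threshold. With 1 library left out at a time, Tfam passed in 1 of 8 fits and Tfb1m in 2 of 8, the adjusted p reaching 0.0266 and 0.0224, while the log2 fold changes stayed at 0.24 to 0.30 and 0.42 to 0.60. Tfb2m was at 2.00, 1.48, 1.49 and 1.82 RPKM without and 1.72, 1.83, 2.31 and 2.07 RPKM with T3, and its log2 fold change of 0.21 did not pass (adjusted p = 0.236), with the sign turned after rescaling (-0.01).

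**Figure D2:**
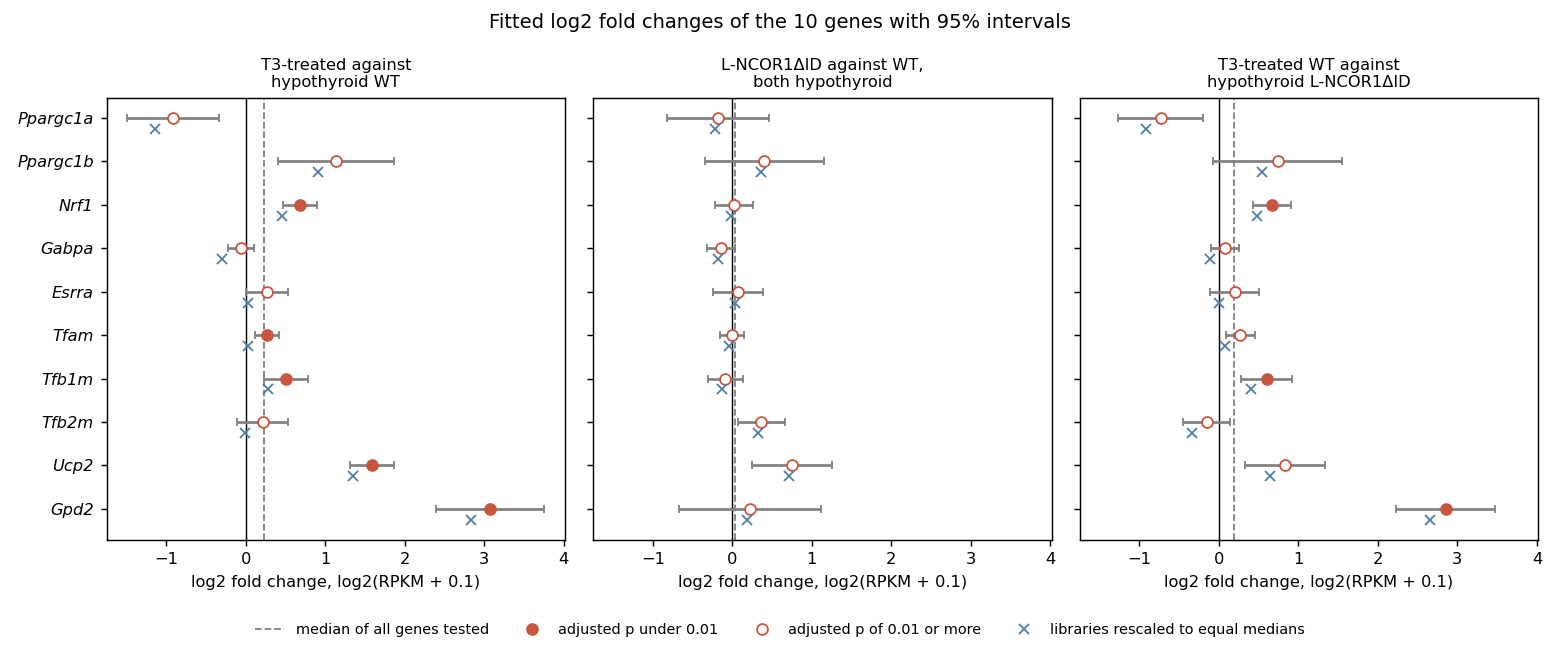
Fitted log2 fold change of each gene (x axis, on the log2(RPKM + 0.1) scale) in the 3 comparisons, with 95% intervals, filled points for an adjusted p under 0.01, crosses for the value after rescaling and a dashed line for the median over the table. With T3 the filled points are Gpd2 (3.07), Ucp2 (1.59), Nrf1 (0.68), Tfb1m (0.51) and Tfam (0.27), while in the L-NCOR1ΔID comparison all 10 points are open.

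The levels, which RPKM gives per length of transcript, changed order among the genes. In hypothyroid WT mice the highest were Esrra (16.6 ± 2.07 RPKM, mean ± SD, n = 4), Gabpa (12.2 ± 0.848 RPKM), Tfam (9.72 ± 0.0558 RPKM) and Ucp2 (9.04 ± 1.24 RPKM), of which Tfam and Ucp2 overlapped. Tfb1m (5.91 ± 0.256 RPKM) and Gpd2 (4.25 ± 2.14 RPKM) followed with overlapping ranges. Ppargc1a (2.81 ± 0.956 RPKM), Nrf1 (1.98 RPKM), Ppargc1b (1.89 RPKM) and Tfb2m (1.70 RPKM) had the lowest means, and the ranges of these 4 genes overlapped each other, with those of Ppargc1a and Ppargc1b also reaching into that of Gpd2. In T3-treated WT mice Gpd2 (33.4 ± 3.57 RPKM) and Ucp2 (27.4 ± 3.73 RPKM) headed the order with overlapping ranges, above Esrra (20.1 ± 2.41 RPKM). Ppargc1a (1.40 ± 0.312 RPKM) was then the lowest, with a range that just reached that of Tfb2m (1.98 ± 0.264 RPKM).

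The comparison of hypothyroid L-NCOR1ΔID with hypothyroid WT mice asked whether loss of the TR-binding domains of NCOR1 went with a change of these genes without hormone. The study also saw less HDAC3, the deacetylase that NCOR1 brings, at sites not bound by TR. It proposes that these domains may matter for other regulators too, so the comparison does not isolate contact with TR. The same 4 hypothyroid WT libraries served here as in the T3 comparison. Of the 10 genes, 0 were called higher and 0 lower with limma, beside 0.725% and 0.544% of all 13790 genes tested, and 2 (Ucp2 and Tfb2m) were higher and 0 lower at an unadjusted p under 0.05, beside 12.8% and 7.77% of all genes. Both counts were near these shares, and are not a result about the 10 genes. Ucp2 was at 21.3, 19.0, 13.1 and 10.1 RPKM in the mutant. The lowest of these lay under the highest hypothyroid WT library (10.7 RPKM), and the other 3 lay above every hypothyroid WT library and below every T3-treated one. The log2 fold change was 0.75 ± 0.22 (unadjusted p = 0.00811, adjusted p = 0.0988), or 1.69-fold with a 95% interval from 1.19 to 2.39.

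The macrophage markers were summed at 132.8, 242.1, 116.3 and 89.8 RPKM in L-NCOR1ΔID replicates 1 to 4. In the same order, Ucp2 was at 21.3, 19.0, 13.1 and 10.1 RPKM. The hypothyroid WT library with the highest marker sum (123.3 RPKM) had 10.7 RPKM of Ucp2. The sum adds markers of unlike level, and Marco alone ran from 0.647 to 29.1 RPKM in the mutant. Of the 11 markers, 0 were called in this comparison and 2 were higher at an unadjusted p under 0.05, with a median log2 fold change of 0.33. Their part in the Ucp2 values was not tested.

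**Figure D3:**
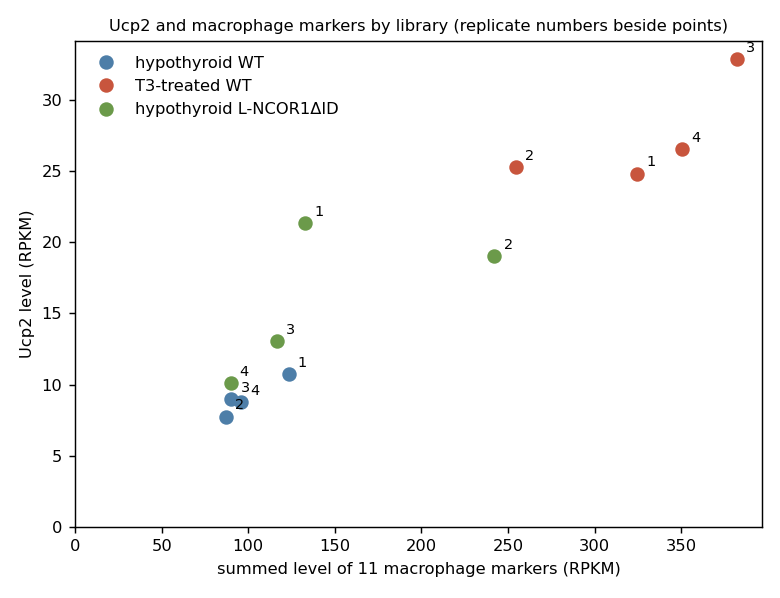
Level of Ucp2 (y axis, RPKM) against the summed level of 11 macrophage markers (x axis, RPKM) in the 12 libraries, with replicate numbers beside the points. The T3-treated libraries lie at 254.7 to 382.1 RPKM of markers and 24.8 to 32.9 RPKM of Ucp2, and the hypothyroid WT ones at 87.3 to 123.3 RPKM and 7.75 to 10.7 RPKM. The L-NCOR1ΔID libraries lie at 89.8 to 242.1 RPKM of markers, and libraries 1 to 3 lie between the other groups in Ucp2.

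Tfb2m was at 2.47, 2.27, 2.13 and 1.97 RPKM in L-NCOR1ΔID mice, and 3 of these 4 values exceeded every hypothyroid WT value. Its log2 fold change was 0.37 ± 0.13 (unadjusted p = 0.0209, adjusted p = 0.159). Gpd2 stayed in the hypothyroid range, at 6.40, 2.32, 5.04 and 5.57 RPKM. Its log2 fold change was 0.22 ± 0.40 (adjusted p = 0.800), and the 95% interval of the fold, from 0.626 to 2.17, lay wholly under that of T3. Nrf1, at 1.97, 2.07, 1.82 and 2.22 RPKM, had an interval from 0.862 to 1.19, also wholly under that of T3. These values bound the change that the design could have missed, and do not show that the genes were equal in the mutant.

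The remaining genes had no detectable difference in L-NCOR1ΔID mice. Tfam was at 10.4, 9.39, 9.19 and 9.88 RPKM (95% interval of the fold 0.901 to 1.11), and Tfb1m was at 5.43, 5.25, 5.04 and 6.57 RPKM (0.807 to 1.09). Gabpa was at 11.7, 10.9, 10.1 and 11.5 RPKM (0.802 to 1.03), and Esrra was at 16.8, 21.4, 18.1 and 14.1 RPKM (0.848 to 1.30). The intervals of these 4 genes were narrow, whereas those of the coactivators were wide. Ppargc1a was at 2.46, 3.21, 2.53 and 1.52 RPKM (0.566 to 1.38), and Ppargc1b was at 1.40, 2.51, 4.15 and 2.30 RPKM (0.785 to 2.22).

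T3-treated WT mice were also compared directly with hypothyroid L-NCOR1ΔID mice, which share libraries with both comparisons above. Here 3 of the 10 genes were higher and 0 lower, beside 15.5% and 5.7% of all 14017 genes tested, and 5 were higher and 1 was lower at an unadjusted p under 0.05, beside 35.6% and 12.8%. Gpd2 differed by a log2 fold change of 2.85 ± 0.27 (adjusted p = 1.27e-04) and Nrf1 by 0.66 ± 0.11 (adjusted p = 0.00166), with both called after rescaling too. Tfb1m differed by 0.60 ± 0.14 (adjusted p = 0.00989), and by 0.41 after rescaling (adjusted p = 0.0371). Ucp2, at 0.83 ± 0.22, missed the threshold (adjusted p = 0.0169). With 1 library left out at a time it passed in 1 of 8 fits, and the adjusted p reached 0.0504. The fit that passed was without L-NCOR1ΔID replicate 1 (0.996, adjusted p = 0.00865). Ppargc1a was at -0.73 ± 0.24 (adjusted p = 0.0356), and without L-NCOR1ΔID replicate 4, the lowest of its group, at -0.93 (adjusted p = 0.00729). That too was the only fit to pass of 8, and the adjusted p reached 0.0902.

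Other genes of these pathways were counted in lists, to be read against the 24.5% of all genes that were higher and 7.71% that were lower with T3, and at an unadjusted p under 0.05 against 42.9% and 13.6%. Counts after rescaling are to be read against 1716 higher and 1941 lower of 13913 genes. Of 16 tested partners and upstream regulators of the PGC-1 coactivators, 7 were higher and 0 lower with T3 (9 and 0 at an unadjusted p under 0.05), with a median log2 fold change of 0.28. After rescaling 1 was higher and 2 were lower. The 3 largest changes among those called were in Esrrg, an estrogen-related receptor (1.47), Pprc1, a coactivator related to PGC-1 (0.96), and Nrip1, a nuclear receptor corepressor (0.84). None of these 3 was called after rescaling (adjusted p from 0.0173 to 0.0322). Esrrg was at -1.07 in L-NCOR1ΔID mice (adjusted p = 0.0709).

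Of 17 genes for mitochondrial DNA transcription, replication and translation, 3 were higher and 0 lower with T3 (7 and 3 at an unadjusted p under 0.05), with a median of 0.15, below that of all genes. They were Mterf3, a regulator of mitochondrial transcription (0.80), Gfm1, a mitochondrial translation elongation factor (0.57), and Polrmt, the mitochondrial RNA polymerase (0.55). After rescaling Mterf3 and Gfm1 stayed called and 3 genes were lower. Of 12 genes for cytochrome c and cytochrome oxidase, known targets of NRF1 and GABPA among them, 8 were higher and 0 lower, and all 12 lay above 0 (12 higher at an unadjusted p under 0.05) with a median of 0.43. The largest changes among those called were in the oxidase subunits Cox5a (0.88) and Cox5b (0.63) and in Cyc1, cytochrome c1 of complex III (0.57). After rescaling only Cox5a was called (0.64, adjusted p = 0.00309) and the median was 0.19.

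Of 10 tested mitochondrial carriers, 4 were higher and 0 lower with T3 (7 and 0 at an unadjusted p under 0.05). Slc25a30, a carrier of the family that holds the uncoupling proteins, rose (log2 fold change 3.13 ± 0.57, adjusted p = 0.00201) from 2.01, 5.14, 16.5 and 3.02 RPKM to 37.2, 63.6, 52.5 and 26.9 RPKM. Hypothyroid WT replicate 3 again stood highest in its group. It was the single carrier called after rescaling (2.89), and it was at 2.04 to 4.36 RPKM in L-NCOR1ΔID mice. Slc25a25, an ATP-Mg/phosphate carrier, had a log2 fold change of 1.22, and Slc25a5, an ADP/ATP carrier, one of 0.43. Ucp1 and Ucp3 were below the filter, at 0.042 RPKM or less in every library.

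The NADH shuttles moved in both directions. Of 10 genes, 2 were higher and 2 lower with T3 (3 and 4 at an unadjusted p under 0.05), and 2 were higher and 3 lower after rescaling. Gpd1, the cytosolic partner of GPD2, rose from 69.4 to 117.0 RPKM in hypothyroid WT, replicate 3 being the highest, to 156.6 to 206.1 RPKM in T3-treated WT mice (log2 fold change 0.94 ± 0.18, adjusted p = 0.00232), whereas its relative Gpd1l fell by 0.77 on the log2 scale. The aspartate-glutamate carriers of the malate-aspartate shuttle diverged likewise. Slc25a12 rose from 3.67 to 4.65 RPKM to 10.4 to 11.8 RPKM (1.42 ± 0.09, adjusted p = 9.87e-06), and Slc25a13, the main form in liver, fell from 105.0 to 118.5 RPKM to 51.6 to 62.0 RPKM (-0.94 ± 0.08, adjusted p = 2.95e-05).

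**Figure D4:**
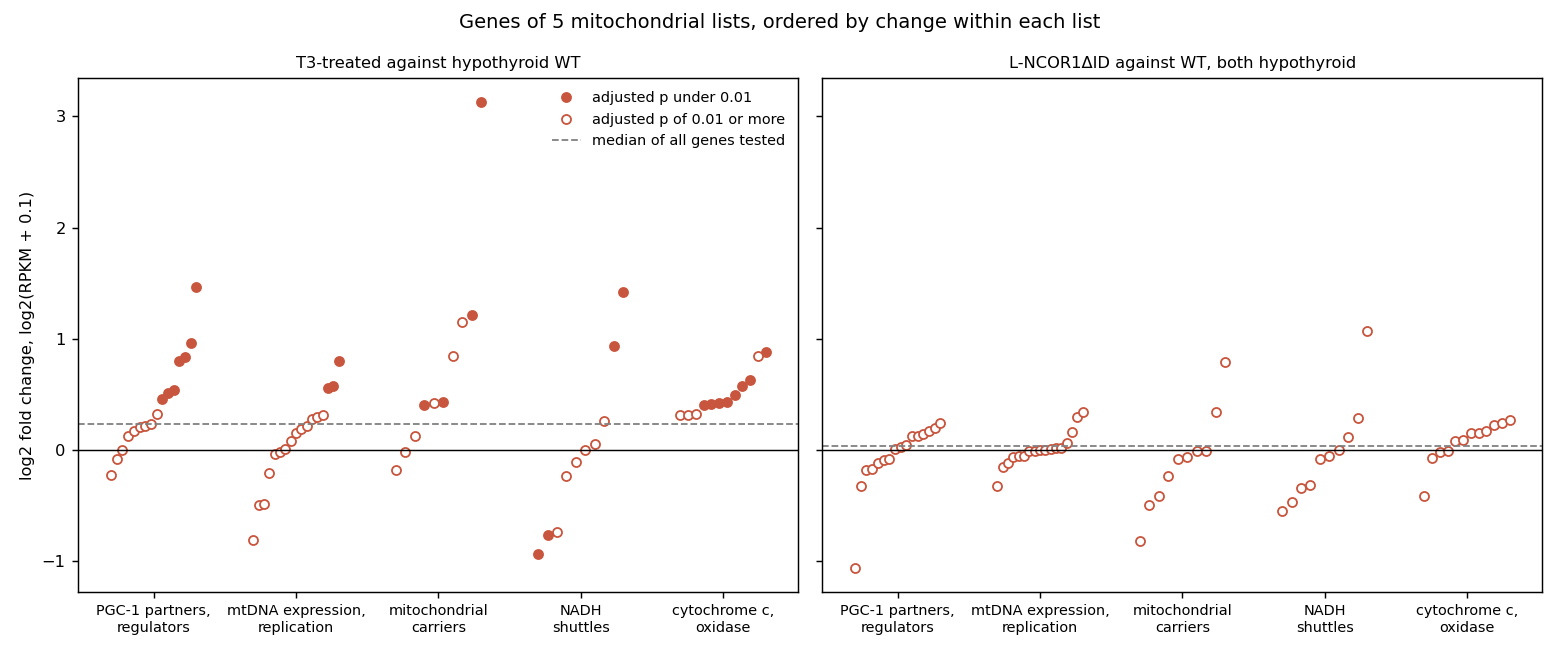
Log2 fold changes (y axis, on the log2(RPKM + 0.1) scale) of the tested genes of 5 mitochondrial lists with T3 (left) and in L-NCOR1ΔID mice (right), ordered within each list, with filled points for an adjusted p under 0.01 and a dashed line for the median of all genes tested. Slc25a30 (3.13) stands highest on the left, the NADH shuttles have filled points on both sides of 0, and no point on the right is filled.

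In L-NCOR1ΔID mice 0 genes of these 5 lists were called with limma. At an unadjusted p under 0.05, 2 were higher and 1 lower among the PGC-1 partners, 2 and 1 among the genes of mitochondrial DNA, 0 and 1 among the carriers, 1 and 3 among the NADH shuttles and 3 and 0 among the cytochrome genes, to be read against the 12.8% and 7.77% of all genes at that threshold.

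The genes whose pattern over the 12 libraries was most like that of Gpd2, by Pearson r of log2(RPKM + 0.1) among 13619 genes, were Sfmbt1 (0.995), Abcd3 (0.991), Paqr9 (0.987), Ublcp1 (0.987) and Fam35a (0.986). Abcd3, a peroxisomal membrane transporter, was at 86.1 to 145.5 RPKM in hypothyroid WT, 324.1 to 367.6 RPKM in T3-treated WT and 78.2 to 145.9 RPKM in L-NCOR1ΔID mice. Paqr9, a membrane receptor family member, was at 13.3 to 35.8 RPKM, 135.5 to 219.9 RPKM and 8.93 to 31.1 RPKM. As in Gpd2, the T3-treated libraries stood apart from both hypothyroid groups, which overlapped, a pattern that choice by r favours. Pearson r does not compare the size of a change. Sfmbt1, the most alike, was at 3.92 to 4.97 RPKM in hypothyroid WT and 6.98 to 7.90 RPKM in T3-treated WT mice. These values describe a likeness across 3 groups of 4 libraries that share the difference with T3.

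Genes on the other strand overlap several members in the annotation, and the strand setting of the counting was not stated. Where exons overlap, reads of both therefore cannot be told apart. Whole gene spans were compared, introns included, so an overlap given here need not lie in exons. Atp5j overlapped Gabpa by 701 bp, Cldn20 and Tiam2 overlapped Tfb1m by 660 bp and 135 bp, Trmt112 overlapped Esrra by 73 bp, and a lincRNA and a pseudogene overlapped Gpd2 by 874 bp and 3123 bp. A 7SK RNA overlapped Nrf1 by 327 bp, a pseudogene overlapped Tfb2m by 519 bp and a miRNA overlapped Ppargc1b by 113 bp. Hepatocyte markers also shifted with T3, with Alb and Ttr lower and Hnf4a higher among 5, while 2 of 3 neutrophil markers, 3 of 6 endothelial and 2 of 5 stellate markers were higher, 0 of 6 lymphocyte markers were called (3 higher at an unadjusted p under 0.05 with limma) and 1 of 4 cholangiocyte markers was higher and 1 lower. After rescaling, Ttr was the single hepatocyte marker called, and 1 neutrophil and 1 endothelial marker stayed higher. Of all genes tested with T3, 24.5% were higher and 7.71% lower, and 42.9% and 13.6% at an unadjusted p under 0.05. After rescaling 1716 were higher and 1941 lower of 13913. Counts over so few markers are to be read against these.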

How the data were processed

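Poly(A) RNA from 12 mouse livers was sequenced, and H3K27 and H3K9 acetylation was mapped by ChIP-seq. The authors aligned reads to mm9 with STAR, and the deposited RPKM values were quantified by the authors with HOMER per RefSeq transcript; tool versions are not given in the sources used here. Each library has runs from both instrument models used in the study, and replicate numbers only name mice. Regions were called with HOMER and merged over marks and conditions by the authors. Other ChIP-seq measurements were not analysed here.

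Of 31370 transcripts, 1 without a gene name was left out. Values were tested as log2(RPKM + 0.1) with limma 3.58.1 (R 4.3.3), with a variance trend, Benjamini-Hochberg adjustment and only the groups compared in each fit; a gene entered when 4 or more of the libraries had 0.1 RPKM or more. Fold changes on this scale understate those of low genes. A gene was called at an adjusted p under 0.01, the study's FDR. The fit was tested on simulated data with independent noise and as many genes raised as lowered. The simulated data lacked the shift over all genes seen with T3. Starts and overlaps came from GENCODE M1 (the mm9 assembly), since the RNA table holds no positions. Python 3.11.15 was used. The members and lists were chosen with earlier results of these data known. The genes named are all 10 members, the 3 largest called T3 changes of each pathway list, the check genes and the 5 genes most like the member that changed most; Gpd1l, Ucp1, Ucp3, Esrrg in L-NCOR1ΔID mice and single markers, chosen after their values were seen, are named beside these. Alternatives were another pseudocount, filter, scaling, transcript, variance model, threshold or start site, all libraries in 1 fit, a replicate block and each library left out. P-values measure the spread between mice, and depth limits the lowest values, 0.1 RPKM being 2.13 to 4.28 reads per kilobase of transcript.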

Additional observations from a re-analysis of the deposited data

Results flagged for a closer look

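With groups of 4, chance alone sets apart about 1 library in 20 groups, and 48 groups of values were examined. Gpd2 in T3-treated WT replicate 4 (28.134 RPKM) lay far below the other 3 libraries of its group, and without it the log2 fold change with T3 was 3.15 (adjusted p = 2.8e-04). Dio1 in hypothyroid WT replicate 3 (57.68 RPKM) lay far above the other 3, and without this library the T3 log2 fold change was 3.35 for Gpd2 (adjusted p = 3.48e-05) and 1.34 for Ppargc1b (adjusted p = 0.0101).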

How the results depend on the processing

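With T3, members higher (5) became 3 after rescaling and 3 without a variance trend, and 3 to 6 with 1 library left out. Members lower (0) became 1 after rescaling, 1 with the replicate block and 1 at an adjusted p under 0.05, and 0 to 1 with 1 library left out. All genes higher (3413) and lower (1075) became 1716 and 1941 after rescaling, 5244 and 1636 at an adjusted p under 0.05, and 2438 to 2978 and 746 to 994 with 1 library left out. In L-NCOR1ΔID mice 0 members were called in every fit run at an adjusted p under 0.01. All genes higher (100) became 21 with no filter, 20 with the block, 63 without a trend and 344 at an adjusted p under 0.05, with 36 to 110 when 1 library was left out. All genes lower (75) became 22 with no filter, 118 with all 12 libraries in 1 fit, 25 with the block and 257 at an adjusted p under 0.05, with 28 to 77 when 1 library was left out. For T3-treated WT against L-NCOR1ΔID, members higher (3) became 5 with all libraries in 1 fit, 1 with the block and 5 at an adjusted p under 0.05 (2 to 3 with 1 left out), and members lower (0) became 1 at an adjusted p under 0.05 (0 to 1). All genes higher (2176) and lower (799) became 1292 and 477 with no filter, 1048 and 1293 after rescaling, 1152 and 490 with the block, 3995 and 1412 at an adjusted p under 0.05, and 1182 to 1905 and 469 to 767 with 1 left out. Signs turned after rescaling for Tfb2m with T3 (-0.0134), Nrf1 in L-NCOR1ΔID (-0.0200) and Gabpa against L-NCOR1ΔID (-0.11). In the L-NCOR1ΔID comparison they turned with 1 library left out for Ppargc1a (-0.397 to 0.0198), Nrf1 (-0.0243 to 0.0667), Esrra (-0.0266 to 0.172), Tfam (-0.0348 to 0.0225) and Gpd2 (-0.0166 to 0.534), none of them called. The causes were not tested. Same-numbered libraries correlated by -0.12 to 0.17 (1 of 12 pairs above 0.1), so the numbers do not pair mice. With the replicate block, Ppargc1a (adjusted p = 0.0043) and Ppargc1b (0.00995) passed with T3 and Tfam (0.0228) did not. The count of members with an acetylated start (9) was 9 with region edges up to 1000 bp away and 10 with any annotated start. Of 540 other values of single genes under the alternatives, 483 kept their direction and side of the threshold.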
